A study of Rattus norvegicus with 6 samples.

Results

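This account covers the genes by which the kidney tubule takes sodium back from the filtrate and the genes through which aldosterone adjusts that uptake, measured in rat renal cortex after o-nitroanisole. The rule named 9 genes and took every non-control array probe whose RefSeq accession maps to one of them. Of the 9, 8 had a probe, with 14 probes in all, among 11815 named genes and 32428 features tested. Slc12a1, the sodium-potassium-chloride cotransporter of the thick ascending limb, was matched by no accession and is not analysed here.

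Male Sprague-Dawley (Crl:CD(SD)) rats, bought at 5 weeks of age, gave cortex RNA that was labelled with Cy3 and read on 6 one-colour Agilent arrays, 3 for each group of 3 rats. In the first group, 3 rats received o-nitroanisole, a nitroaromatic chemical, at 400 mg/kg/day for 4 weeks. In the second, 3 rats received corn oil, the vehicle, for 4 weeks. All rats were housed alike on a basal diet and tap water, and the comparison asks how the compound alters transcripts of the cortex.

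Sodium crosses the tubule cell in 2 steps. It enters from the lumen through a transporter that differs by segment, and the sodium pump of the opposite membrane then moves it toward the blood. Aldosterone acts in the late distal nephron through the mineralocorticoid receptor; its targets include the epithelial sodium channel ENaC and the kinase Sgk1, and the enzyme Hsd11b2 protects the receptor there by inactivating glucocorticoids.

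The scaled signal given below is the array's processed signal of a probe divided by the 75th percentile of the non-control probes on that array, so it has no unit and can be compared between rats for 1 probe but not between probes. Over the arrays, the 75th percentile lay between 905 and 1041 intensity units, and 66.4% to 71.5% of probes were well above background. All 14 probes of the sodium and aldosterone genes exceeded background clearly on each of the 6 arrays, and 0 of their spots were marked as outliers. The o-nitroanisole arrays were on 1 slide and the corn oil arrays on another, so group and slide cannot be told apart in any value below. With limma's default moderation and Benjamini-Hochberg adjustment at 0.05, 0% of all 32428 features passed in either direction, and 0 of the 8 genes did. At an unadjusted p under 0.05, 3 of the 8 were higher and 0 lower, where 18.9% of all features passed (11.8% higher and 7.12% lower). The groups did not overlap for the same 3 genes, Scnn1b, Scnn1g and Atp1b1, against 27.2% of all features (17.6% higher and 9.56% lower). The 8 genes had a median log2 difference, o-nitroanisole minus corn oil, of 0.21, and all features one of 0.03.

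**Figure D1:**
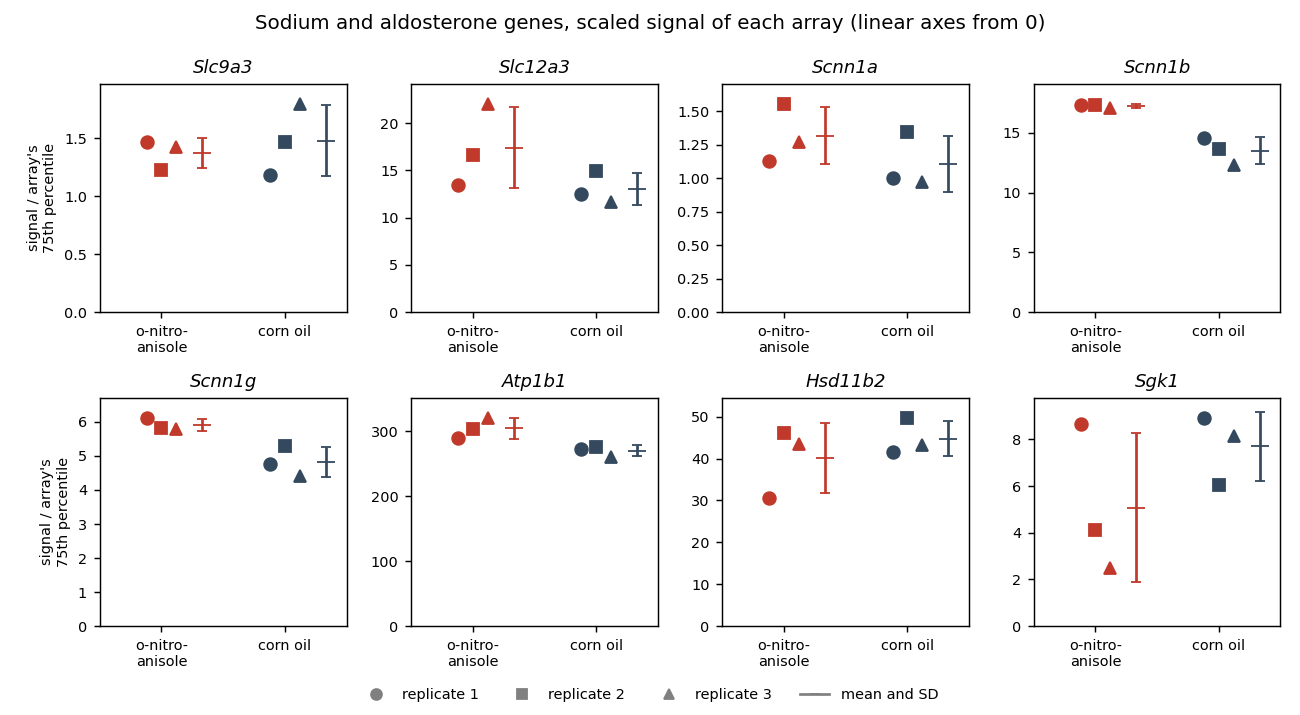
Scaled signal (vertical axis, linear from 0, no unit) of the brightest probe of each gene on every array, o-nitroanisole left and corn oil right; circle, square and triangle are replicates 1, 2 and 3, and bars give the mean and SD of 3 rats. Scnn1b, Scnn1g and Atp1b1 show no overlap between the groups, while Sgk1 spans 2.48 to 8.64 on the o-nitroanisole arrays alone.

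The sodium channel of the collecting duct gave the clearest separation of the groups: transcripts of its beta and gamma subunits lay higher on every o-nitroanisole array than on any corn oil array, by 1.28-fold and 1.23-fold, without passing the adjusted threshold. ENaC, the amiloride-sensitive channel, is assembled from alpha, beta and gamma subunits encoded by Scnn1a, Scnn1b and Scnn1g, and sets the final sodium content of urine. Scnn1b had scaled signals of 17.3, 17.3 and 17.1 in o-nitroanisole rats, against 14.6, 13.6 and 12.3 in corn oil rats. The 3 o-nitroanisole values were nearly equal and all lay above the corn oil range. The log2 difference was 0.36 ± 0.08 (SE, n = 3 per group; limma adjusted p = 0.128), a fold of 1.28 with a 95% interval of 1.12 to 1.46. Its other probe, at 2.32, 2.37 and 2.14 in o-nitroanisole rats and 1.96, 2.03 and 1.85 in corn oil rats, also separated the groups, by a log2 difference of 0.23.

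Scnn1g, which had 1 probe, gave scaled signals of 6.10, 5.82 and 5.80 in o-nitroanisole rats, against 4.77, 5.28 and 4.40 in corn oil rats. Every o-nitroanisole value again lay above the highest corn oil value. The log2 difference was 0.30 ± 0.08 (limma adjusted p = 0.164), a fold of 1.23 with a 95% interval of 1.07 to 1.42. Scnn1a, the alpha subunit, which in mice is needed for a working channel, had scaled signals of 1.13, 1.55 and 1.27 in o-nitroanisole rats, against 1.00, 1.35 and 0.972 in corn oil rats. These groups overlapped, since corn oil replicate 2 exceeded 2 of the o-nitroanisole arrays. The log2 difference was 0.26 ± 0.18 (limma adjusted p = 0.481), and the gene's dimmer probe, at -0.11, pointed the other way. The mean of both probes gave 0.07 and normexp background correction 0.39; without o-nitroanisole replicate 2 the difference was 0.13, and without corn oil replicate 2 it was 0.40.

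The subunits were also compared as ratios within each array. The log2 ratio of Scnn1b to Scnn1a was 0.10 higher in o-nitroanisole rats, that of Scnn1g to Scnn1a was 0.04 higher, and that of Scnn1g to Scnn1b differed by -0.06. None of these 3 comparisons showed a difference in an exact two-sided permutation test (p = 0.6, 0.9 and 0.6, adjusted p = 0.9 for each), although 3 rats against 3 cannot give a p below 0.1. The ratios used the brightest probe of each subunit. The dimmer Scnn1a probe, with a log2 difference of -0.11, did not enter them, and ratios with it were not tested.

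Scnn1b and Scnn1g lie next to each other on rat chromosome 1. Because both separated the groups in the same direction, the 250 bases before the start that the promoter table gives for each are shown, from RefSeq on build GRCr8, plus strand, 5′ to 3′. Capitals mark GC boxes, the letters GGGCGG on either strand.
Scnn1g, chr1:185735975-185736224: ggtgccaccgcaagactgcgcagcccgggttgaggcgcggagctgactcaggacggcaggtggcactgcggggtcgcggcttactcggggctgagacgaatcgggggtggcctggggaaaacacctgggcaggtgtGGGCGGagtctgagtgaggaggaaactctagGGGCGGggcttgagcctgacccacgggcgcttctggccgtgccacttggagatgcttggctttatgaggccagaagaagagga
Scnn1b, chr1:185861126-185861375: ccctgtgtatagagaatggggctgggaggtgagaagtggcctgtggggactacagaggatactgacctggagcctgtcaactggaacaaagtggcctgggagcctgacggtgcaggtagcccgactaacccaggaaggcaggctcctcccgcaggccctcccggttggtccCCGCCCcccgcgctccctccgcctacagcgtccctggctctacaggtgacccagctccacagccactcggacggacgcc
The Scnn1g stretch held 2 GC boxes and the Scnn1b stretch 1, and 30.5% of the 33469 stretches of this length in the table held at least 1. Both had a G and C content of 65.6%, against a median of 51.2% over all stretches. The steroid response element, AGAACA and TGTTCT with any 3 bases between them, was found in neither, nor in any of the 9 stretches that the table holds for the genes of the rule (7 for 5 of the measured genes and 2 for Slc12a1), and 0.012% of all stretches held it. Its half-site AGAACA, searched on both strands and contained in the full element, was also in 0 of the 9, against 17.5% of all stretches. The table held no stretch for Scnn1a, Hsd11b2 or Atp1b1, so the search does not cover them. Sgk1 had more than 1 stretch and the 2 of Slc12a1 overlapped, so the 9 are not separate genes.

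Markers of the connecting tubule and principal cells, where ENaC is made, had positive differences for 5 of 7 tested genes and negative ones for 2, with groups that did not overlap for 3, all higher, where 17.6% of all features were higher without overlap. Their summed scaled signal was 112.5 to 126.1 in o-nitroanisole rats and 99.1 to 107.2 in corn oil rats. Aqp2 made up most of that sum on every array. Here and below, a summed signal follows the brightest probes of a list and does not weigh its markers equally. Aqp2, the vasopressin-regulated water channel of principal cells, differed by 0.26 ± 0.10 log2 (limma adjusted p = 0.242), with its other probe at 0.03. Aqp4, a basolateral water channel, differed by 0.81 ± 0.11 (adjusted p = 0.0880), with probes between 0.06 and 0.84. Avpr2, the vasopressin receptor of these cells, lay at -0.27 ± 0.13 (adjusted p = 0.331), and the water channel Aqp3 had 37.5, 32.8 and 25.1 in o-nitroanisole rats and 25.8, 33.1 and 36.2 in corn oil rats. All 8 intercalated cell markers had positive differences as well, 6 with no overlap (17.6% of all features), at a summed signal of 183 to 205 in o-nitroanisole rats and 137 to 161 in corn oil rats. In whole cortex RNA, more cells of a type and more RNA per cell cannot be told apart, and the part of these markers in the ENaC values was not tested.

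Scnn1b had the smallest p of the 8 genes. Over the 6 arrays, the named genes whose log2 values went most closely with it were Ftl1, a ferritin light chain (Pearson r = 0.9959), Tsr2 (0.9958) and Med26, a Mediator subunit (0.9935). Of 11807 other named genes, 5 had an r over 0.99, and the group difference enters every one of these correlations.

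**Figure D2:**
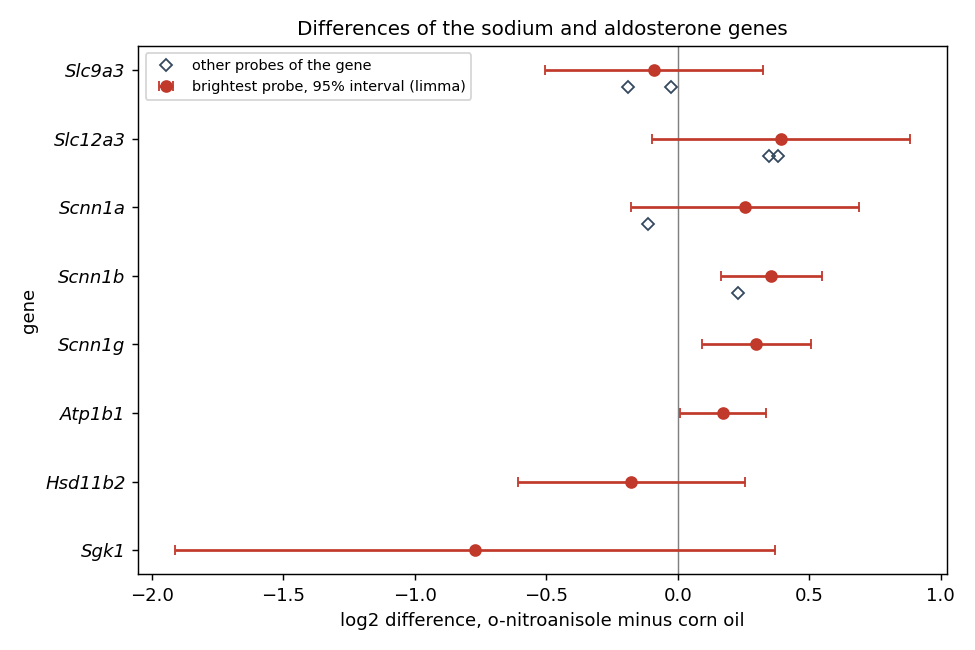
Log2 difference, o-nitroanisole minus corn oil (horizontal axis), for the 8 genes (vertical axis). Filled points are the brightest probe with limma's 95% interval and open diamonds the gene's other probes; the intervals of Scnn1b, Scnn1g and Atp1b1 stay above 0, and the 2 probes of Scnn1a lie on opposite sides of 0.

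Upstream of the channel, the apical transporters of the earlier segments gave no difference that passed the adjusted threshold. Slc12a3, the thiazide-sensitive sodium-chloride cotransporter of the distal convoluted tubule, had scaled signals of 13.5, 16.7 and 22.0 in o-nitroanisole rats, against 12.6, 14.9 and 11.6 in corn oil rats. Corn oil replicate 2 lay above the lowest o-nitroanisole value. The log2 difference was 0.39 ± 0.20 (limma adjusted p = 0.353), a fold of 1.31 with a 95% interval of 0.935 to 1.85. Its 3 probes had similar differences, at 0.39, 0.38 and 0.35, and that of 0.38 separated the groups, with 3.41, 4.02 and 3.66 in o-nitroanisole rats and 2.61, 3.40 and 2.56 in corn oil rats. The difference of the brightest probe was 0.56 (limma adjusted p = 0.254) once o-nitroanisole replicate 1 was left out, 0.21 (adjusted p = 0.556) once replicate 3 of that group was, and the mean of the probes gave 0.37 (adjusted p = 0.248).

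Of the distal convoluted tubule markers, 3 were tested and all were higher, as were 18171 of all 32428 features. Groups did not overlap for 1 of the 3, where 17.6% of all features were higher without overlap. The calcium-binding protein Calb1 differed by 0.64 ± 0.33 log2 (limma adjusted p = 0.363). The summed signal of the 3, most of it Calb1, was 7.30 to 12.3 in o-nitroanisole rats and 6.07 to 8.29 in corn oil rats. Pvalb, a defining marker of the early segment, did not stand clearly above background on a single array. The part of these markers in the Slc12a3 values was not tested.

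Slc9a3, the sodium-hydrogen exchanger NHE3 of the proximal tubule and thick ascending limb, had scaled signals of 1.47, 1.23 and 1.42 in o-nitroanisole rats, against 1.18, 1.46 and 1.79 in corn oil rats. The o-nitroanisole values lay inside the corn oil range. The log2 difference was -0.09 ± 0.17 (limma adjusted p = 0.804), with the other probes at -0.19 and -0.03. A 95% interval of 0.705-fold to 1.25-fold leaves room for a modest change in either direction. Without corn oil replicate 3 the difference was 0.06.

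Proximal tubule markers were higher for 7 of 9, with 5 not overlapping (17.6% of all features), at a summed signal of 1343 to 1388 in o-nitroanisole rats and 1187 to 1233 in corn oil rats. The neutral amino acid transporter Slc6a19 differed by 0.47 ± 0.11 log2 (limma adjusted p = 0.139), and Slc34a1, the main renal phosphate transporter, by -0.01 ± 0.06. Thick ascending limb markers went the other way: 5 of 7 were lower, 4 of them without overlap (9.56% of all features). Their summed signal, most of it Umod, was 432 to 462 in o-nitroanisole rats and 511 to 553 in corn oil rats. Umod, uromodulin, the protein this segment secretes into urine, had 410, 379 and 401 in o-nitroanisole rats, against 503, 456 and 459 in corn oil rats. That is a log2 difference of -0.25 ± 0.07 (limma adjusted p = 0.160), and Cldn16, a claudin of the magnesium and calcium pathway there, lay at -0.41 ± 0.16 (adjusted p = 0.244).

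On the blood side of the tubule, the sodium pump subunit Atp1b1 separated the groups by a small margin that depended on scaling and background correction. Atp1b1 encodes the beta subunit, which the pump needs to reach the membrane. It had scaled signals of 289, 304 and 320 in o-nitroanisole rats, against 273, 277 and 261 in corn oil rats. All 3 o-nitroanisole values were higher, with a log2 difference of 0.17 ± 0.07 (limma adjusted p = 0.246) and a fold of 1.13 (95% interval 1.01 to 1.26). Quantile scaling, which forces the same signal distribution on every array, gave a difference of 0.04 (limma adjusted p = 0.720). Normexp background correction gave 0.09 (limma adjusted p = 0.399), and median scaling 0.19 (0.230).

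The pump's other subunits and FXYD regulators were fixed as a list of 9 genes, of which 8 were tested, 5 higher and 3 lower, with a median of 0.05. At an unadjusted p under 0.05, 2 were higher (11.8% of all features) and 0 lower (7.12%). Fxyd2, the gamma subunit that tunes the pump's affinity, had 169, 175 and 171 in o-nitroanisole rats and 155, 148 and 149 in corn oil rats. The groups did not overlap, at a log2 difference of 0.19 ± 0.06 (limma adjusted p = 0.172), with its other probe at 0.08. Atp1b3, another beta subunit, lay at 0.21 ± 0.09 (adjusted p = 0.292).

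For the 2 members at the centre of aldosterone action the differences were negative, and neither was beyond the spread between rats. Hsd11b2, 11-beta-hydroxysteroid dehydrogenase type 2, had scaled signals of 30.7, 46.2 and 43.6 in o-nitroanisole rats, against 41.6, 49.6 and 43.1 in corn oil rats. Only o-nitroanisole replicate 1 lay below the corn oil range. The log2 difference was -0.18 ± 0.17 (limma adjusted p = 0.620), and it was 0.01 without that array.

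Sgk1, the serum and glucocorticoid regulated kinase that keeps ENaC at the membrane by inhibiting the ubiquitin ligase Nedd4l, had scaled signals of 8.64, 4.11 and 2.48 in o-nitroanisole rats, against 8.90, 6.04 and 8.15 in corn oil rats. o-Nitroanisole replicate 1 lay within the corn oil range, while replicates 2 and 3 lay below all of them. On the log2 scale the SD was 0.91 among o-nitroanisole rats and 0.29 among corn oil rats. The difference of -0.77 ± 0.46 (limma adjusted p = 0.423) was the largest of the 8 in size, and its 95% interval ran from 0.266-fold to 1.29-fold. Leaving out o-nitroanisole replicate 1 gave -1.25 (adjusted p = 0.204), and leaving out replicate 3 gave -0.35.

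The order of the o-nitroanisole arrays for Sgk1, replicate 1 highest and replicate 3 lowest, recurred in 7 of the 13 tested genes of the corticosteroid pathway list, against 15.6% of all features. The 7 were Tsc22d3, Fkbp5, Per1, Zbtb16 and Usp2, which corticosteroids induce, and Hsd11b1 and Nedd4. The reverse order was seen in 3, Sgk2, Mlst8 and Cnksr3, an aldosterone-induced scaffold protein, against 19.7% of all features. The order was noticed after the values were seen, so it is a description. Tsc22d3, the leucine zipper protein GILZ, had 7.33, 5.42 and 3.72 in o-nitroanisole rats, against 3.94, 3.72 and 4.24 in corn oil rats. Fkbp5, a co-chaperone of steroid receptors, had 11.5, 9.03 and 5.95 in o-nitroanisole rats and 10.1, 6.85 and 6.08 in corn oil rats. Per1, a clock gene that is also an aldosterone target, had 0.405, 0.254 and 0.175 in o-nitroanisole rats and 0.388, 0.265 and 0.277 in corn oil rats.

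Zbtb16, a zinc finger factor, had 0.264, 0.193 and 0.0420 in o-nitroanisole rats and 0.173, 0.0557 and 0.125 in corn oil rats. Usp2, a deubiquitinating enzyme of the ENaC pathway, had 8.93, 7.35 and 6.82 in o-nitroanisole rats and 7.04, 5.49 and 4.76 in corn oil rats. For these 5 genes and Sgk1, o-nitroanisole replicate 1 was the highest and replicate 3 the lowest of that group. Among corn oil rats replicate 1 was the highest for Sgk1, Fkbp5, Per1, Zbtb16 and Usp2, and replicate 3 for Tsc22d3. Cnksr3 had 0.261, 0.308 and 0.324 in o-nitroanisole rats and 0.249, 0.280 and 0.247 in corn oil rats, with o-nitroanisole replicate 1 the lowest of its group. The group differences of these genes had no common direction, and the lowest adjusted p among Sgk1 and the 5 genes, in limma, was 0.271 for Usp2.

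**Figure D3:**
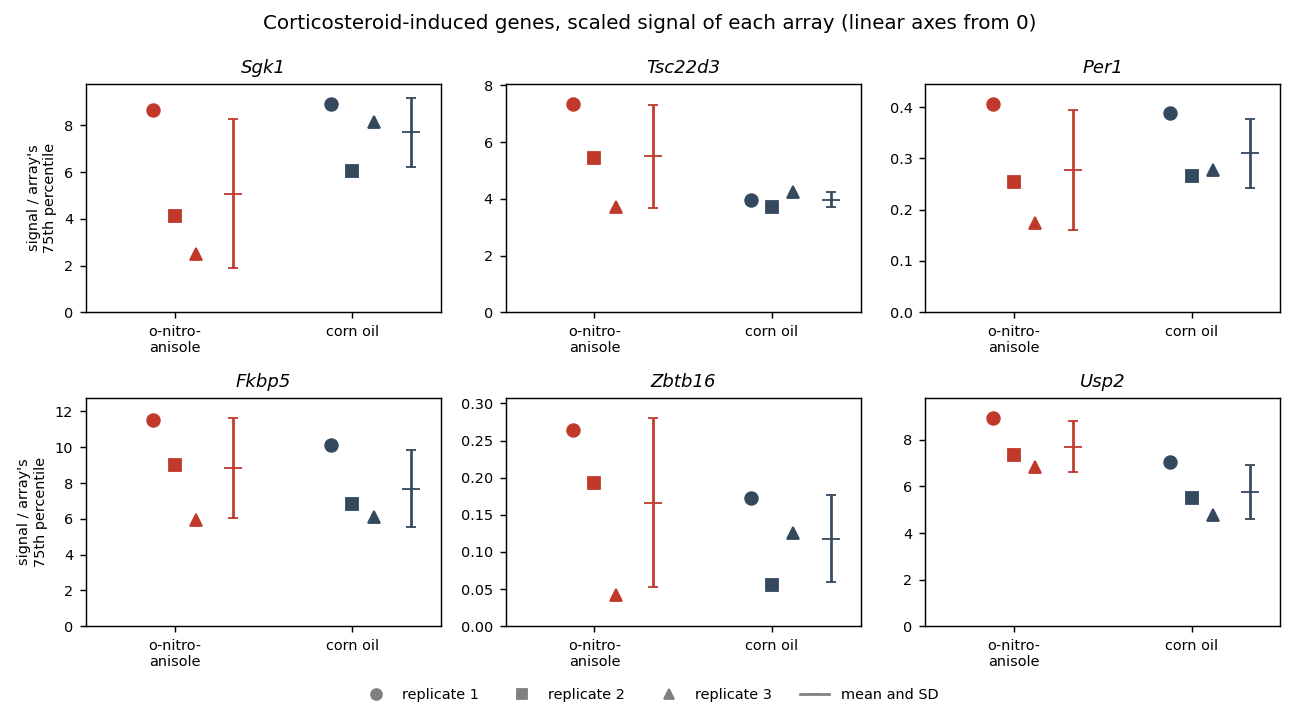
Scaled signal (vertical axis, linear from 0, no unit) of Sgk1 and 5 other corticosteroid-induced genes, chosen after their values were seen, on every array, o-nitroanisole left and corn oil right; circle, square and triangle are replicates 1, 2 and 3, and bars give the mean and SD. In all 6 panels the circle is the highest and the triangle the lowest of the o-nitroanisole arrays.

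The rest of the mineralocorticoid and glucocorticoid pathway was fixed as 16 genes, of which 13 were tested. Of these, 1 was higher (11.8% of all features) and 0 lower (7.12%) at an unadjusted p under 0.05, with a median of 0.08. That one was Sgk2, a kinase related to Sgk1, with 18.4, 19.5 and 21.4 in o-nitroanisole rats, against 15.1, 17.3 and 11.3 in corn oil rats, a log2 difference of 0.46 ± 0.17 (limma adjusted p = 0.228). Usp2 and Tsc22d3 lay at 0.43 ± 0.18 and 0.42 ± 0.25 (adjusted p = 0.271 and 0.416). Nr3c2, the mineralocorticoid receptor itself, had 1.10, 1.09 and 1.16 in o-nitroanisole rats and 1.12, 1.10 and 1.07 in corn oil rats, a difference of 0.03 ± 0.06 (adjusted p = 0.850). Nedd4l was matched by no accession and is not analysed here.

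Among the proteases that activate ENaC by cleavage, 4 of 4 had groups that did not overlap, 3 higher and 1 lower, where 17.6% of all features were higher and 9.56% lower without overlap. Plau, urokinase, had 7.72, 7.69 and 7.75 in o-nitroanisole rats, against 11.6, 11.4 and 13.4 in corn oil rats. The o-nitroanisole values were almost identical and lay well below the others, at a log2 difference of -0.65 ± 0.08 (limma adjusted p = 0.0820). Prss8, prostasin, which cleaves the gamma subunit, had 90.2, 93.4 and 93.4 in o-nitroanisole rats and 83.3, 69.5 and 84.2 in corn oil rats, a difference of 0.23 ± 0.09 (adjusted p = 0.259). St14, matriptase, differed by 0.25 ± 0.06 (adjusted p = 0.144), though its other probe gave 0.03, and Furin, the proprotein convertase, by 0.19 ± 0.05 (adjusted p = 0.165).

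A list of regulators of the transporters held the WNK and SPAK kinases, which switch on the sodium-chloride cotransporters, their partners, and the scaffold proteins Nherf1 and Nherf2, which bind Slc9a3 and Slc34a1. It was tested for 9 of 12 genes, 8 of them with positive differences and Nherf2 with a negative one, and a median of 0.10. At an unadjusted p under 0.05, 3 were higher (11.8% of all features) and 0 lower (7.12%). Of all 32428 features, 18171 had positive differences. Stk39, the kinase SPAK that phosphorylates Slc12a3, had 1.81, 1.97 and 2.05 in o-nitroanisole rats, against 1.43, 1.71 and 1.58 in corn oil rats. Its difference was 0.31 ± 0.09 log2 (limma adjusted p = 0.177), with its other probe at -0.01. Wnk4 had 1.77, 1.60 and 1.60 in o-nitroanisole rats and 1.17, 1.54 and 1.39 in corn oil rats, a difference of 0.29 ± 0.12 (adjusted p = 0.262). Wnk1 lay at 0.25 ± 0.12 (adjusted p = 0.307).

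Potassium and chloride channels work with the sodium transporters on the basolateral side and, for Kcnj1 and Kcnma1, on the apical side. They were tested for 7 of 8 genes, with a median of 0.11. Of the 7, 2 were higher (11.8% of all features) and 0 lower (7.12%) at an unadjusted p under 0.05. Kcnj16, a subunit of the basolateral potassium channel Kir4.1/Kir5.1, had 35.3, 30.1 and 34.1 in o-nitroanisole rats, against 23.1, 24.9 and 21.4 in corn oil rats. The lowest o-nitroanisole value lay above the highest corn oil value, at a log2 difference of 0.52 ± 0.09 (limma adjusted p = 0.109), or 1.43-fold. Its partner Kcnj10 was well above background on too few arrays to be tested. Bsnd, barttin, an accessory protein of renal ion channels, lay at 0.21 ± 0.10 (adjusted p = 0.351).

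Of the other sodium-coupled and anion transporters of the tubule, 15 of 16 were tested, with a median of 0.03. Among the 15, 2 were higher (11.8% of all features) and 0 lower (7.12%) at an unadjusted p under 0.05. Slc4a4, the basolateral sodium-bicarbonate cotransporter of the proximal tubule, had 52.4, 56.9 and 58.0 in o-nitroanisole rats, against 35.6, 49.7 and 43.3 in corn oil rats, a log2 difference of 0.39 ± 0.13 (limma adjusted p = 0.209). Slc26a4, pendrin, the chloride-bicarbonate exchanger of intercalated cells, had 48.9, 53.8 and 51.8 in o-nitroanisole rats and 35.6, 40.9 and 44.3 in corn oil rats, a difference of 0.36 ± 0.10 (adjusted p = 0.159). Slc4a8, a sodium-driven chloride-bicarbonate exchanger that works beside pendrin in mice, lay at -0.34 ± 0.26 (adjusted p = 0.530).

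Over the 6 pathway lists together, 56 of 65 genes were tested and 0 passed the adjusted threshold. At an unadjusted p under 0.05, 13 were higher and 1 lower, which is 25% of them against 18.9% of all features. Groups did not overlap for 16 higher and 2 lower, which is 32.1% against 27.2% of all features. With a variance trend and robust moderation, where 1.61% of all features passed (1.24% higher and 0.373% lower), 0 of the 8 sodium and aldosterone genes and 4 of the 56 pathway genes did. Plau (adjusted p = 0.0248) and Kcnj16 (0.0415) were among the 4, and in the fits that left out 1 array only Plau passed, and only without corn oil replicate 3 (adjusted p = 0.0371).

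**Figure D4:**
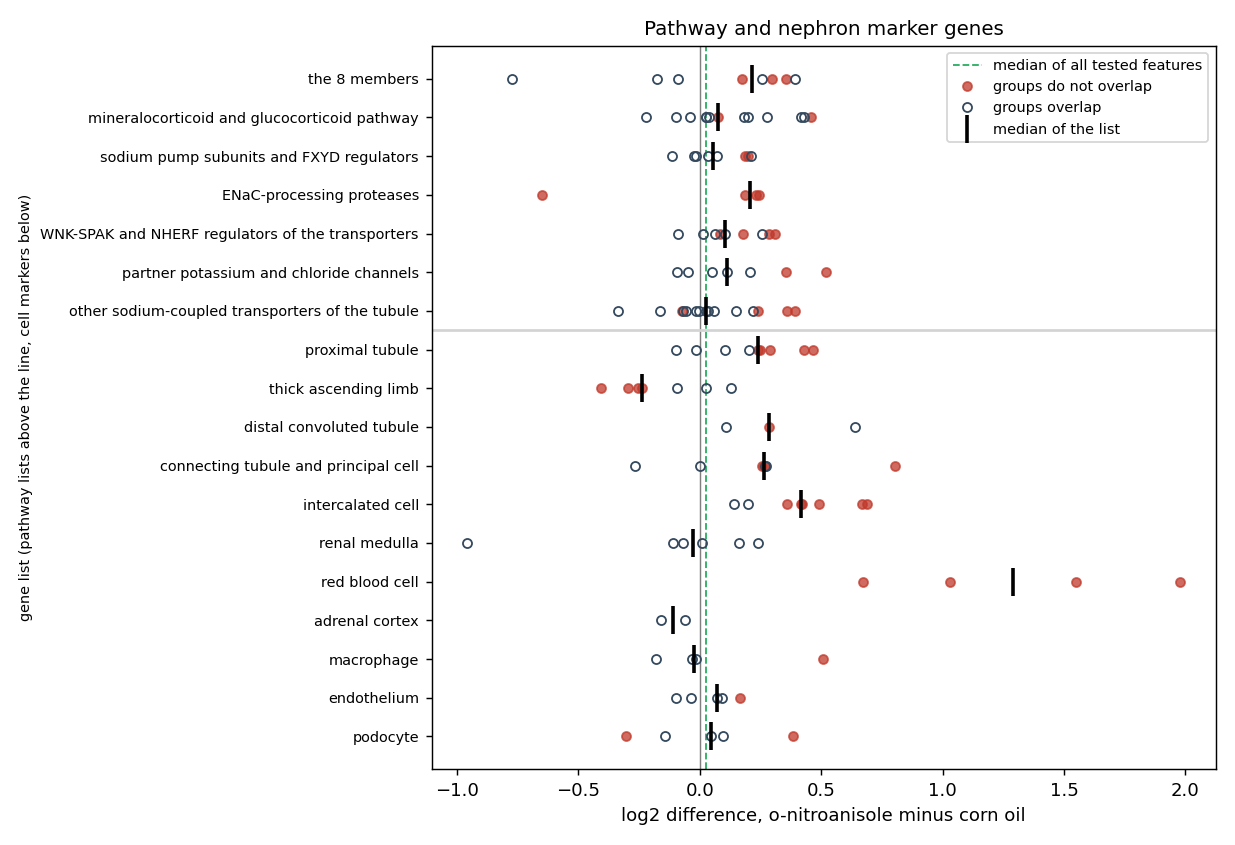
Log2 difference, o-nitroanisole minus corn oil (horizontal axis), of each tested gene among the 8 sodium and aldosterone genes (top row), in the pathway lists (above the grey line) and the cell marker lists (below it). Filled points are genes whose groups do not overlap, black bars are list medians and the dashed line is the median of all features at 0.03; the thick ascending limb median is -0.24, the intercalated cell median 0.42 and the red blood cell median 1.29.

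The other marker lists place these values in the tissue. All 4 tested red blood cell markers were higher without overlap, where 17.6% of all features were. Ahsp differed by 1.98 ± 0.36 log2 (limma adjusted p = 0.109). The summed signal of the 4, most of it Hbb, was 247.7 to 303.5 in o-nitroanisole rats and 161 to 186 in corn oil rats. Medulla markers had a median of -0.03, with 3 higher and 3 lower. Among them Cryab lay at -0.96 ± 0.39 (adjusted p = 0.264), with 17.4, 13.8 and 14.8 in o-nitroanisole rats and 50, 17.0 and 30.5 in corn oil rats, and it alone was most of the summed signal of the corn oil arrays. That sum was 26.5 to 31.3 in o-nitroanisole rats and 28.2 to 62.9 in corn oil rats. Of the adrenal cortex markers, Cyp11b1, Cyp11b2 and Star did not stand clearly above background on a single array, and Cyp11a1 lay at -0.16 ± 0.48. List medians were -0.02 for macrophages (Cd14 at 0.51 ± 0.08), 0.07 for endothelium (Kdr at 0.17 ± 0.08) and 0.04 for podocytes (Podxl at 0.39 ± 0.10). The part of these cells in the values of the sodium genes was not tested.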

How the data were processed

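Per the file headers and the submitters' processing notes, the deposited scanner files hold spot intensity from Agilent Feature Extraction 10.7; the processed signal is background-subtracted and detrended within the array. The authors' deposited value table holds a ratio, that signal over the array's 75th percentile, on a linear scale without centring (column medians 0.101 to 0.109). Its 3 corn oil columns hold the values of the corn oil scanner files under other replicate numbers, so the numbers of the corn oil rats are not settled, while their group is.

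From the intensity, log2 processed signal minus the array's log2 75th percentile over all 61657 non-control probes was computed, and outlier spots were set to missing. The 84 spike-ins among these probes were then left out of the tests, which left 61573. Probes were named by RefSeq accession through a GRCr8 gene table (27460 of 33356 accession-bearing probes matched). Tests kept probes that Feature Extraction marked well above background in all 3 arrays of either group, and took the brightest of these for each gene. Fits used limma 3.58.1 in R 4.3.3 (lmFit, eBayes with defaults) over all features, after a test on simulated data; plots used matplotlib 3.10.9, and tables pandas 2.3.3 with numpy 2.4.6 in Python 3.11.15. The array headers name build rn4, so no gene coordinates are given; promoter sequences and their positions are RefSeq's on GRCr8. The ENaC subunit ratios were compared by exact permutation.

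The members and lists were chosen with earlier results of these data known. The rule for named genes took all members, the 3 genes of each pathway list with the largest difference, 1 gene per marker list, and Nr3c2, Nedd4l, Wnk1, Wnk4, Tsc22d3, Slc34a1, Umod, Pvalb and Aqp2; Furin, Per1, Fkbp5, Zbtb16, Cnksr3, Hsd11b1, Nedd4, Mlst8, Nherf1, Nherf2, Kcnj1, Kcnma1, Avpr2, Aqp3, Kcnj10, Cyp11b1, Cyp11b2 and Star were added after their values were seen. Some genes that the rule covers are not reported here. Per the labels, each group had 3 animals and has 3 numbered replicates; 3 arrays per group limit the precision. Same-numbered arrays did not deviate together (correlations 0.091, 0.058 and 0.026), and no pairing was used. As the numbers of the corn oil rats are not settled, these correlations cannot show whether rats were paired. Alternatives covered scaling, background, dim filter, outlier spots, probe choice, moderation, source table, replicate block and leaving out each array.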

Additional observations from a re-analysis of the deposited data

How the results depend on the processing

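The 8 genes kept their direction under each of 10 alternatives on all arrays, and none passed 0.05 (lowest adjusted p = 0.0539, Scnn1b with trend and robust moderation). Only the scaling, the background correction and the mean of probes moved the differences. The other alternatives left them as they were, or nearly so for the deposited value table, and say nothing about direction. Features called numbered 0 by default, 115 under normexp background correction and 522 with trend and robust moderation; pathway genes called numbered 0, 1 and 4. Quantile scaling took pathway genes past an unadjusted p of 0.05 to 5 from 14, and the members whose groups did not overlap to 2 from 3. With each array left out in turn, there were 0 to 4 features called, 0 members, 0 pathway genes, 2 to 5 members past an unadjusted p of 0.05 and 7 to 14 pathway genes; the 5 came without o-nitroanisole replicate 1, the 4 features without corn oil replicate 3, and the 7 without o-nitroanisole replicate 2. Added after seeing the data, the same with trend and robust moderation gave 0 to 69 features, 0 to 1 pathway genes and 0 members called, with 3 to 5 members past an unadjusted p of 0.05; the feature counts were 35, 0 and 24 without o-nitroanisole replicates 1, 2 and 3, and 6, 62 and 69 without corn oil replicates 1, 2 and 3. Slc9a3 ranged from -0.24 to 0.0581 (without corn oil replicate 3) and Hsd11b2 from -0.29 to 0.00639 (without o-nitroanisole replicate 1), neither past the threshold in any fit. Each such fit has 1 array fewer; otherwise the cause was not tested. With the replicate block, Scnn1b lay at 0.36 (adjusted p = 0.23) and 0 features were called, so the block changed no call; the numbers are not shown to pair rats. A fit with slide as a block was not possible: each slide carries 1 group.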
